A study of Mus musculus with 4 samples.

Results

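The genes described here are 7 RNA-binding and chromatin proteins of the Lin28, Igf2bp and Hmga families: Lin28a, Lin28b, Igf2bp1, Igf2bp2, Igf2bp3, Hmga1 and Hmga2. They were chosen by symbol from the 31054 features of the deposited matrices, and each of the 7 was present once in every matrix. The matrices come from 4 single-cell RNA libraries of sorted mouse intestinal epithelial cells, 1 library for each group. All animals carried Bmi1-GFP, a reporter that marks cells transcribing the Polycomb gene Bmi1, and the series describes the sorted cells as Bmi1-expressing. The groups were embryos of day 12.5 (E12.5) and of day 17.5 (E17.5), untreated adults, and adults that had been irradiated. The labels give neither the radiation dose nor the interval after it, and they do not give adult age, sex, the number of animals or the sorting gates. The question put to the data was how these genes differ between stages and cell types, and whether any of them was higher after irradiation.

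Lin28a and Lin28b bind the precursors of the let-7 microRNAs and block their maturation, with the help of terminal uridylyltransferases. Mature let-7 in turn silences messages that carry its target sites, and messages of all 3 families are textbook let-7 targets. The Igf2bp proteins bind messenger RNAs and steer their stability, transport and translation. The Hmga proteins are small architectural chromatin proteins that bind AT-rich DNA, and they are known as markers of embryonic, proliferating tissue. In the mouse gut this module is known for its fetal activity.

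The let-7 sequences are shown because the seed they share defines the target site searched in the members. Mature let-7 itself was not measured in these libraries. In RefSeq (GRCm38.p6) all 9 let-7 and miR-98 5p entries carry the same seed, bases 2 to 8, in capitals in these 3 examples:
mmu-let-7a-5p: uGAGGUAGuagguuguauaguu
mmu-let-7g-5p: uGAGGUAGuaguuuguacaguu
mmu-miR-98-5p: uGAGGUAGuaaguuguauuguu

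The match to that seed, CTACCTC, was searched on the sense strand of the longest annotated 3′ UTR of each gene (GENCODE M21, GRCm38), and no other motif was searched. All 7 members held at least 1 match, against 9.01% of the 20972 genes with a 3′ UTR. Among genes whose 3′ UTR was 0.8 to 1.25 times as long as the member's, the share with a match lay between 8.26% (for Hmga1) and 34.3% (for Igf2bp1). Lin28b, Igf2bp1 and Hmga2 held 4 matches each, Lin28a held 2, and Igf2bp2, Igf2bp3 and Hmga1 held 1 each. The first match of each 3′ UTR is shown in capitals, after the 15 bases before it and before the 1 base after it:
Lin28a: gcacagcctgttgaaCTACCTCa
Lin28b: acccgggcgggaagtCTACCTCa
Igf2bp1: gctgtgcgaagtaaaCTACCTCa
Igf2bp2: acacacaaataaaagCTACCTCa
Igf2bp3: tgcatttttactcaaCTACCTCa
Hmga1: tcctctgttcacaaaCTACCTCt
Hmga2: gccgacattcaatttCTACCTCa
These sites lie at chr4:134005189-134005211 (minus strand), chr10:45381022-45381044 (minus), chr11:95961778-95961800 (minus), chr16:22059473-22059495 (minus), chr6:49086787-49086809 (minus), chr17:27563277-27563299 (plus) and chr10:120364224-120364246 (minus), in the order of the genes above. In 6 of the 7 the match is followed by A, the base that extends it to the longer canonical site, and in Hmga1 it is followed by T. A match is a property of the sequence and does not show that let-7 acts there.

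After filtering, 4050, 4409, 3597 and 3031 cells remained from E12.5, E17.5, adult and irradiated animals. Of these, 3913, 3130, 3597 and 3031 were epithelial or unnamed and entered the levels. Their summed depth was 79043404, 59353089, 29718619 and 38528179 unique molecular identifiers (UMIs, each standing for 1 captured RNA molecule), in the same order. Most cells of each library carried epithelial markers, but the E17.5 library also contained pancreatic acinar-like, islet-like and mesenchymal-like cells, which were left out of the sums. An unnamed E12.5 cluster of 55 cells led by Acta2 and Col3a1, genes of muscle and connective tissue, stayed in them. The cell types also differed between libraries: enteroendocrine-like cells made up 1196 of the E17.5 cells, 2224 of the adult and 2133 of the irradiated cells, and no E12.5 cluster was named so. Between 0 and 6 cell barcodes were shared by any pair of libraries. Levels are given as UMIs per 1000000 UMIs of the library's cells (CPM), with exact Poisson 95% intervals that cover counting error only. With 1 library for each group, no difference has a replicate check and no p-value is given.

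Every member was lower at E17.5 than at E12.5, and most were lower again in the adult. Counting differences of at least 2-fold on the log2((CPM + 1)/(CPM + 1)) scale, 6 of 7 members were lower at E17.5, where 15.6% of 16575 compared genes were. In the adult, 4 of 7 were lower than at E17.5 (12.3% of 15772 genes), and 6 of 7 were lower than at E12.5 (23.5% of 16708 genes). The members' median log2 ratio was -2.53 from E12.5 to E17.5, against -0.17 over all compared genes, and -1.59 from E17.5 to the adult, against -0.02. With Hmga1 replaced by its sum with a near-identical copy, described with that gene, the first median was the value of Igf2bp3, -1.50. These comparisons share libraries with each other. With edgeR's TMM factors the E17.5 call of Igf2bp2 was lost, at a log2 ratio of -0.995.

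**Figure D1:**
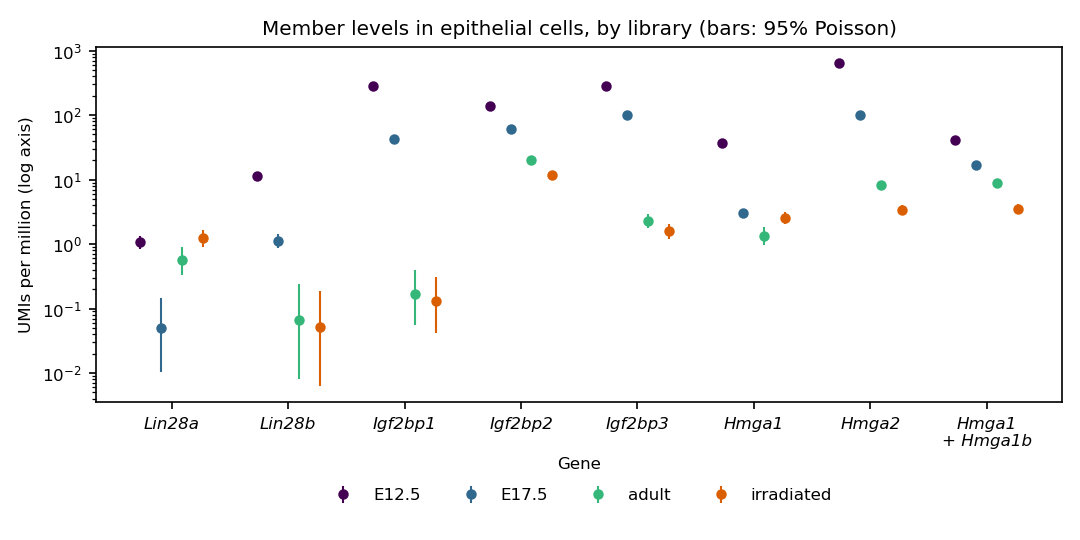
Level of each member (x axis) in the epithelial cells of the 4 libraries, in CPM on a log axis; the last column sums Hmga1 with its near-identical copy Hmga1b, and bars are 95% Poisson intervals. Hmga2 is at 633 at E12.5 and 3.35 in the irradiated library, whereas Lin28a is lowest at E17.5, at 0.05.

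Among the let-7 blockers, Lin28b (chr10:45376620-45486395, minus strand, GRCm38) was lower at each later stage. Its level was 11.3 CPM (10.6 to 12.1) at E12.5 and 1.13 (0.875 to 1.43) at E17.5. In each of the adult and the irradiated library 2 UMIs were counted, which is 0.0673 CPM (0.00815 to 0.243) and 0.0519 (0.00629 to 0.188). At E12.5, 19.2% of cells had a Lin28b UMI, or 2.56% (2.05 to 3.15) once each cell was thinned to 2000 UMIs, and at E17.5 these shares were 2.08% and 0.1005% (0.0207 to 0.293). The E17.5 level was lower by 10.0-fold (interval 7.83 to 13.1), and the adult level was lower than that by 16.8-fold (4.47 to 141).

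Lin28a (chr4:134003330-134018841, minus strand) followed another course. It was scarce throughout, with UMI counts of 84 at E12.5, 3 at E17.5, 17 in adult cells and 47 in irradiated cells, or 1.06, 0.0505, 0.572 and 1.22 CPM. The E12.5 and irradiated levels did not differ beyond counting error, since their ratio was 1.15 (0.786 to 1.66). The E17.5 level was 21.025-fold (6.95 to 104) below that at E12.5, although at -0.97 the log2 ratio with the pseudocount stayed just short of the 2-fold mark. The adult level was in turn 11.3-fold (3.27 to 60.3) above that at E17.5. All UMIs of both libraries were in enteroendocrine-like cells, a class with unequal shares of the cells, and within that class the ratio was 4.18 (1.21 to 22.2).

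Igf2bp1 (chr11:95957163-96005940, minus strand), a binder of many growth-related messages, had the largest difference between embryo and adult of the 3 Igf2bp genes. It stood at 280.2 CPM (277 to 284) at E12.5, 42.9 (41.2 to 44.6) at E17.5, 0.168 (0.0546 to 0.393) in adult cells and 0.130 (0.0421 to 0.303) in irradiated cells. The adult and irradiated values rest on 5 UMIs each. The E17.5 level was 6.54-fold (6.27 to 6.81) below that at E12.5, and the adult level was 255-fold (109 to 785) below that at E17.5.

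Igf2bp3 (chr6:49085223-49214957, minus strand), another fetal-type family member, measured 285 CPM at E12.5, 99.9 at E17.5, 2.29 in adult cells and 1.58 in irradiated cells. It was 2.85-fold (2.77 to 2.94) lower at E17.5 than at E12.5, and 43.7-fold (34.4 to 56.3) lower in the adult than at E17.5. Igf2bp2 (chr16:22059009-22163299, minus strand), the family member known to stay active in adult tissues, went from 139.5 to 61.7, 19.8 and 11.9 CPM in the same order. Its adult level was 7.05-fold (6.49 to 7.68) below that at E12.5, a smaller difference than for Igf2bp1 (1665-fold, 714 to 5130) or Igf2bp3 (125-fold, 98.2 to 160). In the adult, 13.6% of cells still had an Igf2bp2 UMI, or 5.16% (4.39 to 6.02) after thinning.

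Hmga2 (chr10:120361275-120476469, minus strand) measured 633 CPM (627 to 638) at E12.5, 101 (98.7 to 104) at E17.5, 8.18 (7.18 to 9.27) in adult cells and 3.35 (2.80 to 3.98) in irradiated cells. Each library stood apart from the others beyond counting error. After thinning to 2000 UMIs it was found in 69.9% (68.3 to 71.4) of E12.5 cells, 14.0% (12.7 to 15.3) of E17.5 cells, 1.02% (0.688 to 1.45) of adult cells and 0.591% (0.331 to 0.972) of irradiated cells. The steps were 6.25-fold (6.08 to 6.42) from E12.5 to E17.5 and 12.4-fold (10.9 to 14.1) from E17.5 to the adult.

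Hmga1 (chr17:27556497-27563674, plus strand) cannot be read from its own row alone. The annotation lists a second gene, Hmga1b (chr11:120762794-120764419, plus strand), whose transcript is identical to that of Hmga1 at 1599 of 1602 aligned bases. The row of Hmga1 held 36.9, 3.05, 1.35 and 2.54 CPM in the order of the stages and then after irradiation, and the row of Hmga1b held 3.44, 14.0, 7.57 and 0.986. Hmga1 thus took 91.5% (Clopper-Pearson 95% interval 90.5 to 92.4) of the pair's UMIs at E12.5, 17.9% (15.6 to 20.4) at E17.5, 15.1% (11.0 to 19.98) in adult cells and 72.1% (63.7 to 79.4) in irradiated cells. Summed, the pair stood at 40.4, 17.1, 8.92 and 3.53 CPM, so the sum was lower at each step while the single rows were not.

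The share differed less between classes than between libraries. At E17.5 the Hmga1 share lay between 12.9% and 20.6% in the 4 epithelial classes with at least 30 UMIs of the pair and was 20.5% in pancreatic acinar-like cells, and in the adult it lay between 14.1% and 20% in 3 classes. The irradiated classes were further apart, at 80.9% (69.5 to 89.4) in enterocyte-like and 58.7% (43.2 to 73.0) in enteroendocrine-like cells. The reporter row eGFP was high in the same pair of libraries as the Hmga1 share, with 22.8 CPM at E12.5 and 12.4 after irradiation, against 1.01 at E17.5 and 1.65 in the adult. Whether the UMIs of the pair were assigned alike in the 4 libraries was not tested.

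**Figure D2:**
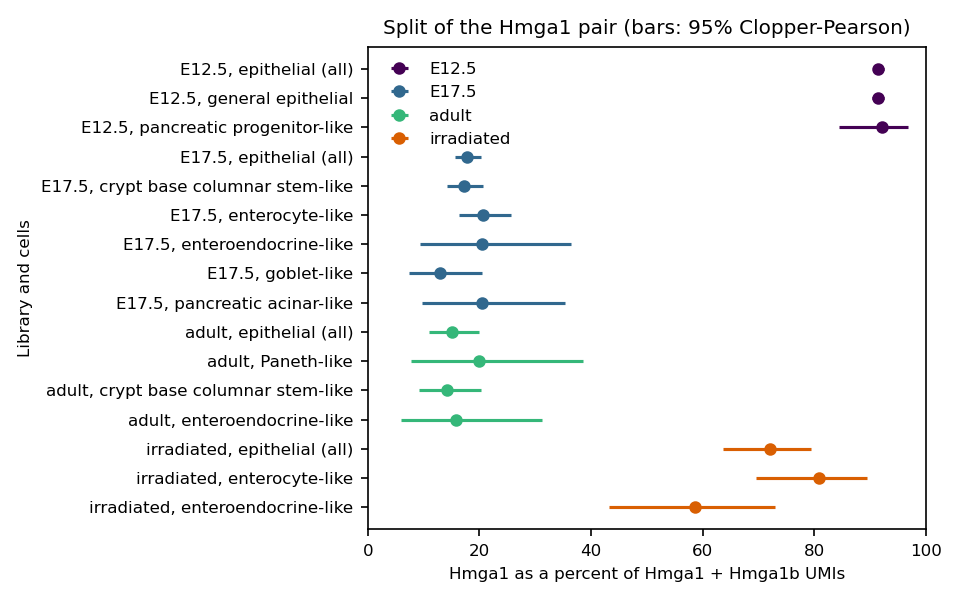
Share of the Hmga1 and Hmga1b UMIs that were counted for Hmga1 (x axis, percent) in each library and in each cell class with at least 30 UMIs of the pair (y axis), with 95% Clopper-Pearson intervals. The E17.5 and adult classes sit at 20.6% or less, and the E12.5 and irradiated classes at 58.7% or more.

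Apart from the scarce Lin28a, none of the members was near its E12.5 level in the irradiated library. Lin28b and Igf2bp1 had too few UMIs to compare, with 2 and 5 in either adult library. Of the 5 members compared, 0 were at least 2-fold higher than in the adult (2.55% of 15146 genes were) and 1, Hmga2, was at least 2-fold lower (4.76% were). Hmga2 was lower by 2.44-fold (1.96 to 3.05). That call was lost when each cell counted equally (log2 ratio -0.56), under a stricter cell filter (-0.89), with a pseudocount of 10 CPM (-0.45) and in enteroendocrine-like cells alone (-0.05).

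Igf2bp2 was 1.66-fold (1.47 to 1.88) and Igf2bp3 1.45-fold (1.01 to 2.08) lower after irradiation. In enteroendocrine-like cells the ratio of irradiated over adult was 0.675 (0.566 to 0.805) for Igf2bp2 and 0.754 (0.457 to 1.25) for Igf2bp3. In the other epithelial cells it was 0.523 (0.436 to 0.626) and 0.596 (0.340 to 1.03), so for Igf2bp3 both intervals include 1. Cell types weigh unequally in these sums. Tuft-like cells numbered 974 in the adult and 476 in the irradiated library. Paneth-like cells numbered 113 and 92, with median depths of 13620 and 99300 UMIs. The enteroendocrine-like clusters differed in share as well. The part that these weights take in the ratios was not tested. Lin28a was 2.13-fold (1.20 to 3.96) higher as a plain ratio, or 0.50 on the log2 scale with the pseudocount. Outside the enteroendocrine-like class 9 irradiated UMIs of Lin28a stood against 0 in the adult, and 6 of the 9 were in tuft-like cells. That is 2.68-fold higher if 3 UMIs replace the 0, and the exact upper limit of adult over irradiated was 0.566. The irradiated cells outside the class include an unnamed cluster of 80 cells led by the neurotensin gene Nts, whose best match was enteroendocrine. An adult cluster of 195 cells led by Nts was kept in the class. Hmga1 by its own row was 1.89-fold (1.30 to 2.80) higher, but the pair summed was 2.53-fold (2.05 to 3.13) lower. In enteroendocrine-like cells the summed pair's ratio of irradiated over adult was 0.789 (0.503 to 1.25), an interval that includes 1. Of the pair's 265 adult UMIs, cells named from crypt stem cell markers held 24 of Hmga1 and 146 of Hmga1b. No irradiated cluster received that name. Of the irradiated cells 29 of 2540 were taken as cycling from their UMIs of G2/M genes, against 98 of 2948 adult cells. Outside the enteroendocrine-like class Hmga2 was 3.65-fold (2.72 to 4.96) lower. The part that the shares of cycling cells and of crypt stem-like cells take in this was not tested.

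A cluster of 74 irradiated cells, unnamed, had Clu, Ly6a, Ly6d and Anxa3 among its leading genes, which are known from regenerating gut epithelium. It was singled out after its genes were seen. Its 138139 UMIs held 1 UMI of Hmga1 and none of Lin28a, Lin28b, Igf2bp1, Igf2bp2, Igf2bp3 or Hmga2. At this depth a count of 0 allows up to 21.7 CPM, which is below the E17.5 levels of Igf2bp1, Igf2bp2, Igf2bp3 and Hmga2 and above every member's adult level.

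At E17.5 the members did not share 1 pattern over cell types. Igf2bp1 was higher in enteroendocrine-like cells, at 53.0 CPM (48.5 to 57.9), than in the other epithelial cells, at 40.9 (39.2 to 42.8). Hmga2 showed the opposite, with 16.2 CPM (13.7 to 18.9) in enteroendocrine-like cells and 117 (114 to 120) in the others. Igf2bp3 stood at 42.8 against 111 CPM, the Hmga1 pair at 4.14 against 19.5, Lin28b at 0.106 against 1.32, and Igf2bp2 at 48.6 against 64.2. Thinned shares of cells went the same way: 12.2% (10.4 to 14.2) against 7.84% (6.65 to 9.17) for Igf2bp1, and 3.87% (2.84 to 5.14) against 20.4% (18.6 to 22.3) for Hmga2.

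Among the other E17.5 classes, Hmga2 was highest in crypt base columnar stem-like cells, named from stem cell markers such as Lgr5, at 150.2 CPM (145 to 155), followed by goblet-like cells at 129.97 (120.5 to 139.99) and enterocyte-like cells at 81.8 (78.0 to 85.8). Igf2bp1 did not differ beyond counting error between those 3 classes, at 43.7 (41.0 to 46.6), 39.7 (34.6 to 45.4) and 39.7 (37.1 to 42.5). Igf2bp3 had its highest class level in enterocyte-like cells, at 130.4 CPM (126 to 135). Outside the gut epithelium, pancreatic acinar-like cells held 6.73 CPM of Igf2bp1 (4.94 to 8.95), found in 1.55% (0.673 to 3.04) of them after thinning, and 51.1 CPM of Hmga2 (45.9 to 56.7). Median depths were 12370 UMIs in acinar-like, 7698 in enteroendocrine-like and 26214 in the other epithelial cells. The share of cells with Igf2bp1 in both gut groups was thus above that in acinar-like cells, taken as the background.

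**Figure D3:**
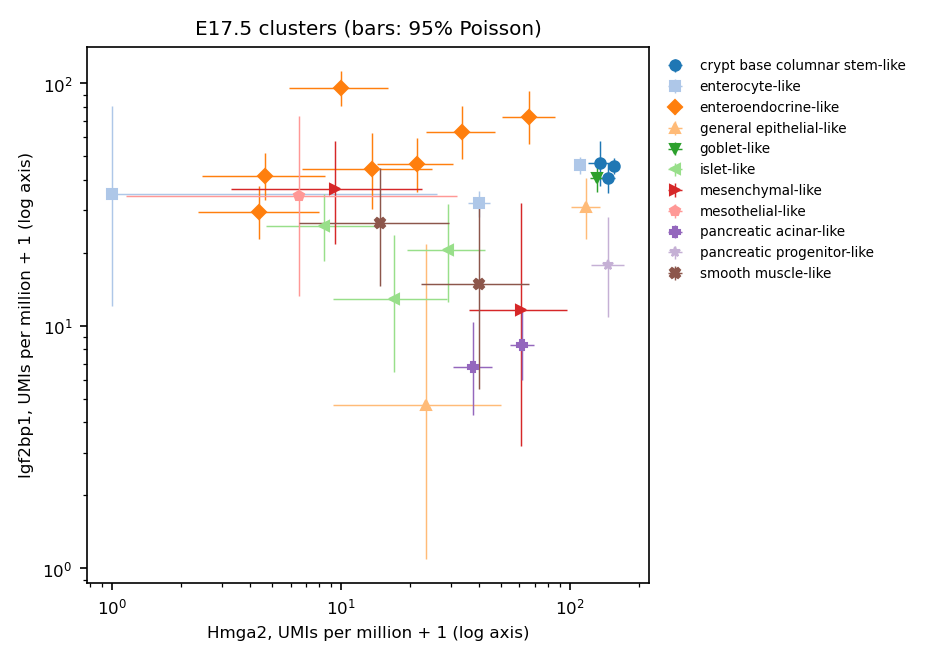
Each point is 1 cluster of the E17.5 library, placed by its Hmga2 level (x axis) and Igf2bp1 level (y axis), both in CPM plus 1 on log axes, with 95% Poisson intervals and a marker for each cell class. Enteroendocrine-like clusters lie at or above 28.5 for Igf2bp1 but spread from 3.39 to 65.1 for Hmga2; stem-like clusters lie at 134 or more for Hmga2.

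Enteroendocrine-like clusters differed in Lin28a, Hmga2 and Igf2bp2, and they are described here beside Tph1, the enzyme that starts serotonin synthesis and marks enterochromaffin cells. All 3 Lin28a UMIs of E17.5 and all 17 of the adult were in enteroendocrine-like cells, as were 38 of 47 in the irradiated library. The adult's other epithelial cells held 0 Lin28a UMIs, and a count of 0 allows up to 0.177 CPM there. Clusters were divided at 500 CPM of Tph1, a mark set after the values had been seen. It does not set enterochromaffin cells apart from the rest. Above it lay an adult cluster with 675 CPM of Tph1 and 136775 of the hormone gene Cck. Irradiated clusters with 603 and 592 of Tph1 had 128090 and 34839 of Cck. In the adult, Lin28a was at 2.81 CPM (1.57 to 4.64) in the 4 clusters above the mark and 0.269 (0.0326 to 0.972) in the 5 below, the latter from 2 UMIs. In the irradiated library the levels were 3.41 (2.36 to 4.76) in 4 clusters and 0.417 (0.114 to 1.07) in 5.

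The adult clusters with the most Tph1 had 3.95 and 5.26 CPM of Lin28a (10 and 3 UMIs), beside 5755 and 5780 CPM of Tph1, and the irradiated cluster with the most had 5.41 beside 3952. Lin28a did not follow Tph1 in every cluster: an irradiated cluster with 2565 CPM of Tph1 had 0, and an adult cluster led by Nts, the neurotensin gene, had 3.77 at 446 CPM of Tph1, from 2 UMIs. Within enteroendocrine-like cells, the irradiated level of Lin28a was 1.46-fold (0.803 to 2.75) that of the adult, a ratio whose interval includes 1. The class itself differed in make-up. Clusters above the Tph1 mark held 676 adult and 1186 irradiated cells, and those below it 1548 and 947. The part that these numbers take in the class's ratios of irradiated over adult, for any member, was not tested.

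Hmga2 summed over the enteroendocrine-like clusters above the Tph1 mark was at a higher level than below it, but single clusters did not all follow. At E17.5 it measured 47.5 CPM (38.1 to 58.5) in the 2 clusters above the mark and 8.36 (6.42 to 10.7) in the 5 below. In the adult the values were 5.06 (3.34 to 7.36) and 2.69 (1.64 to 4.16), and in the irradiated library 5.81 (4.41 to 7.51) and 1.15 (0.572 to 2.05). The intervals overlap in the adult and are apart at E17.5 and after irradiation. Above the mark, the adult clusters had 7.10, 11.0, 0.664 and 0 CPM, the last in the cluster with the most Tph1, and an irradiated cluster with 603 CPM of Tph1 had 0. Below it, an adult cluster with 70.4 CPM of Tph1 had 5.38, and an E17.5 cluster with 25.1 had 20.4. Igf2bp1 was at 66.7 (55.5 to 79.5) and 49.6 (44.7 to 54.9) above and below the mark at E17.5, yet its highest cluster, at 94.6, was a Gip cluster with 2.56 CPM of Tph1. Igf2bp3 was at 32.6 (24.9 to 41.8) and 45.4 (40.7 to 50.5), with intervals that just overlap. Igf2bp2 was lower above the mark than below it in the adult, at 12.2 (9.40 to 15.5) and 25.7 (22.2 to 29.6). After irradiation it was at 10.7 (8.78 to 13.0) and 16.5 (14.0 to 19.3), again with intervals apart. At E17.5 its levels went the other way, at 58.2 (47.8 to 70.2) and 46.2 (41.5 to 51.3), with intervals that overlap.

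**Figure D4:**
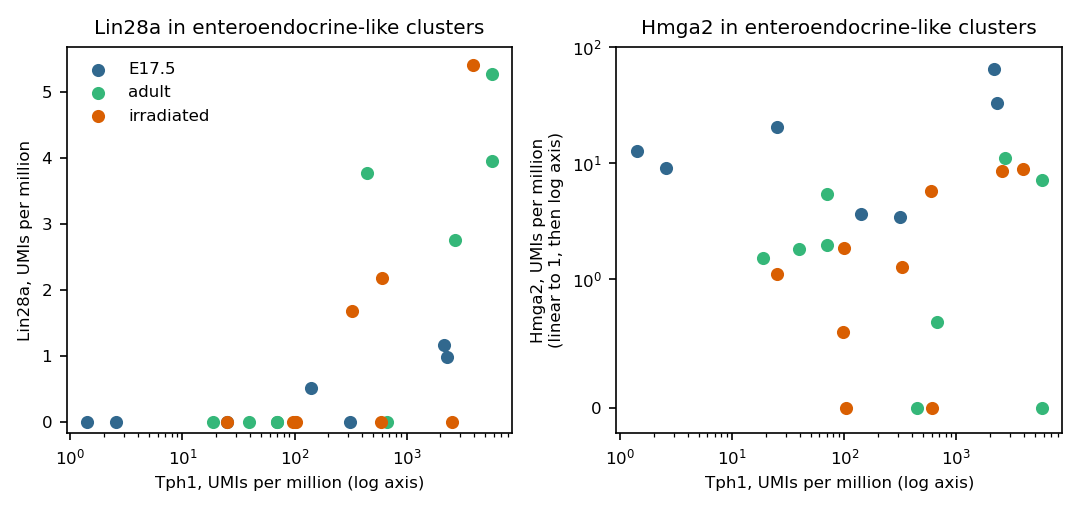
Each point is 1 enteroendocrine-like cluster at E17.5, in the adult or in the irradiated library, placed by its Tph1 level in CPM (x axis, log) and its level of Lin28a (left, linear axis) or Hmga2 (right, axis linear up to 1 and log above). Lin28a exceeds 3 CPM in 3 adult clusters and 1 irradiated cluster; Hmga2 is highest, at 65.1, in an E17.5 cluster with 2153 of Tph1.

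The adult level of Hmga2 came largely from 1 class. The crypt base columnar stem-like cells, 228 in number, with none of the class's markers but cycle genes such as Cenpf and Mki67 among their 10 leading genes, held 171 of the 243 adult Hmga2 UMIs, at 25.8 CPM (22.0 to 29.9). Tuft-like cells, the chemosensory cells of the gut, were at 0.867 CPM (0.236 to 2.22), and Paneth-like cells, which secrete antimicrobial peptides, at 5.42 (3.31 to 8.38). In the irradiated library, 92 enterocyte-like cells with Mki67, Cenpf and Top2a among their leading genes held 50 of 129 Hmga2 UMIs, at 10.2 CPM (7.55 to 13.4), and 55 of 98 Hmga1 UMIs.

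Igf2bp2 was spread more evenly over the adult classes. Among whole classes it was highest in tuft-like cells, at 32.7 CPM (27.7 to 38.4), then 20.1 (17.7 to 22.7) in enteroendocrine-like, 18.1 (14.98 to 21.6) in stem-like, 13.9 (9.24 to 20.1) in enterocyte-like and 8.95 (6.16 to 12.6) in Paneth-like cells. The enteroendocrine-like, stem-like and enterocyte-like intervals overlap. Single adult enteroendocrine-like clusters were less even, from 3.51 to 38.8 CPM. A cluster of 899 cells high in Gip was at 33.6, and the highest, with 130 cells, was led by Sst. After irradiation the tuft-like level was 17.1 (13.5 to 21.5), the enteroendocrine-like level 13.5 (11.96 to 15.3) and the Paneth-like level 1.68 (0.868 to 2.93).

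**Figure D5:**
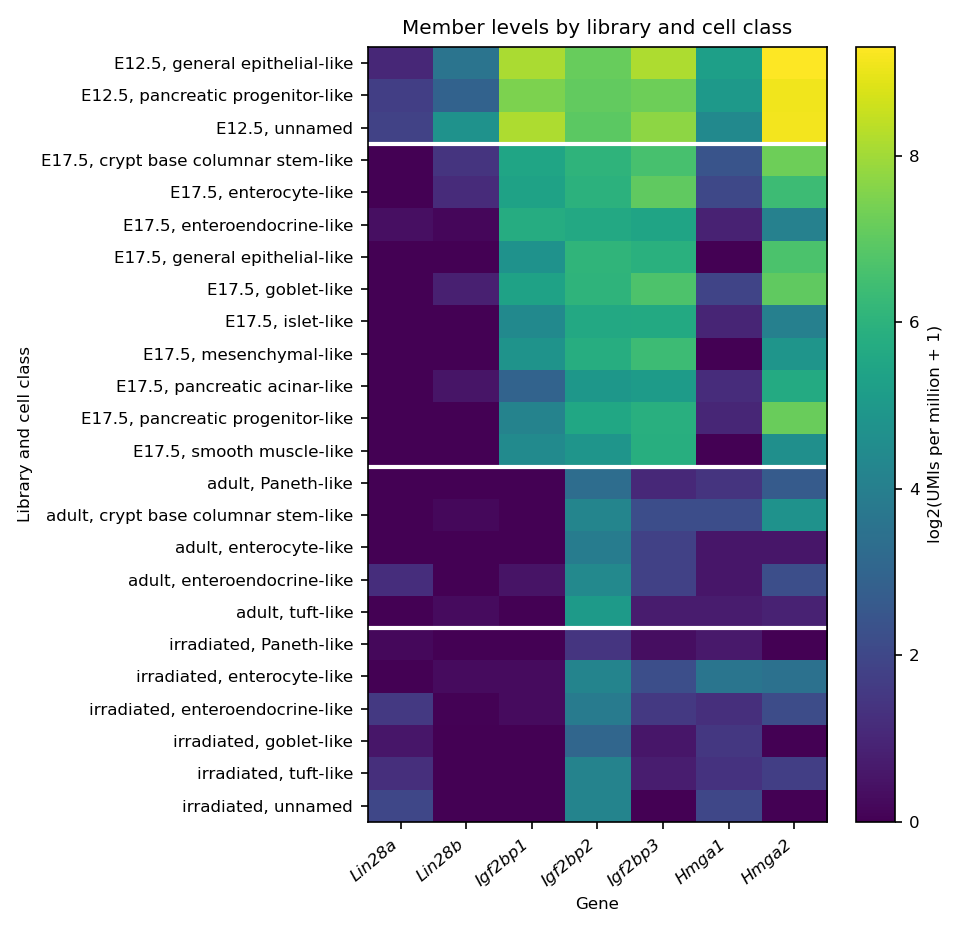
Levels of the 7 members (columns) in every library and cell class of at least 50 cells (rows), as log2(CPM + 1), with white lines between libraries. The E12.5 rows are high for every member but Lin28a; in the adult and irradiated rows Igf2bp2 is the most widely present, at 8.95 to 32.7 in the adult classes.

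At E12.5 every member but Lin28a was found in each cluster. Over the 13 clusters, unnamed and pancreatic progenitor-like ones included, Hmga2 ranged from 322 to 783 CPM, Igf2bp2 from 101 to 221 and Igf2bp1 from 176 to 682. The highest Igf2bp1 level was in an unnamed cluster of 144 cells led by Agtpbp1, Airn and Slc20a1. Those cells were shallow, with a median of 1078 UMIs against 18056 over the kept E12.5 cells. The general epithelial cluster with the highest Hmga2 level, 783 CPM, was led by Postn. It held 5.23 CPM of Lin28a where the other 8 general epithelial clusters held 0.28 to 1.65. Cells with pancreatic progenitor markers had less Igf2bp1 and Igf2bp3 than the general epithelial cells, at 176 against 280.1 CPM and 154 against 286. 

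Cells taken as cycling differed little from the rest at E12.5 and more at later stages. Cells were taken as cycling from 3 UMIs upwards, summed over 15 G2/M genes after thinning. This mark does not assign a phase, and cells below it may be cycling too, which limits the comparison at E12.5. Median depths there were 22675 UMIs in cycling and 16379 in other cells. Hmga2 was at 635 CPM in cycling and 623 in other cells at E12.5, where 2037 of 3359 cells were cycling. Outside the enteroendocrine-like class it was at 133 (129 to 137) and 94.7 (90.5 to 99.0) at E17.5, and at 27.6 (22.9 to 33.1) and 5.89 (4.62 to 7.41) in the adult. After irradiation the same cells gave 16.9 (10.6 to 25.6) and 2.18 (1.54 to 2.99), from 20 cycling cells. Igf2bp3 stood at 111 in both states at E17.5, and Igf2bp2 in the adult was at 17.3 (13.6 to 21.7) in cycling and 20.1 (17.7 to 22.8) in other cells. The Hmga1 pair went with Hmga2, at 24.6 (20.2 to 29.8) and 9.52 (7.88 to 11.4) in the adult. Cycling and other cells there also differ in class. Outside the enteroendocrine-like class 95 adult cells were cycling and 1119 were not, while 901 adult cells of this depth were tuft-like, a class low in Hmga2. Cycle state was not compared within a class, so the part that class takes in these differences was not tested.

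At a depth of 2000 UMIs per cell, the members were often found together in 1 cell only at E12.5. These shares depend on depth. Without thinning, Igf2bp3 was in 92.3% and Hmga2 in 92.1% of the 959 cycling E17.5 cells, so most of those held both. After thinning to 2000 UMIs, 91.9% (90.9 to 92.8) of E12.5 cells had a UMI of at least 1 member, and 63.3% (61.6 to 64.9) of at least 2. The shares for at least 2 were 8.37% (7.40 to 9.42) at E17.5, 0.136% (0.0370 to 0.347) in adult cells and 0.0394% (0.000997 to 0.219) after irradiation. At least 3 members were found in 26.0% (24.5 to 27.5) of E12.5 cells, in 0.938% (0.624 to 1.35) at E17.5, and in 0 of 2948 adult and 0 of 2540 irradiated cells. Taking 3 counts as what a count of 0 allows, those shares could be up to 0.102% and 0.118%, and the Clopper-Pearson upper bounds are 0.125% and 0.145%.

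The stage differences were also computed with and without the enteroendocrine-like class. The cells outside it are not 1 type: they are general epithelial or unnamed at E12.5, mainly stem-like and enterocyte-like at E17.5, and mostly tuft-like in the adult (974 of 1373). Among them, 7 of 7 members were at least 2-fold lower at E17.5 than at E12.5 (18.3% of 16238 genes). For Lin28a 0 UMIs stood against 84, which is 17.7-fold lower if 3 UMIs replace the 0. The exact upper limit of that ratio, E17.5 over E12.5, was 0.0711. There, 5 of 6 compared were lower in the adult than at E17.5 (15.1% of 14619). In enteroendocrine-like cells, 4 of 5 compared were lower in the adult than at E17.5 (8.12% of 13883), the one stage comparison made within a named class. Igf2bp1, with 0 UMIs in the other epithelial cells of the adult, was 231-fold lower there than at E17.5 if 3 UMIs replace the 0. The exact upper limit of that ratio, adult over E17.5, was 0.00532. In enteroendocrine-like cells Igf2bp1 was 135-fold (57.6 to 419) and Hmga2 4.39-fold (3.14 to 6.22) lower.

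Genes that process let-7 or work with Lin28 were lower at E17.5 too. Of 14 such genes, 8 were at least 2-fold lower at E17.5 than at E12.5 and 0 higher, with a median log2 ratio of -1.04 against -0.17 over all genes. Of all compared genes, 15.6% were lower and 13% higher. Zcchc11, the uridylyltransferase that works with Lin28 and is now called Tut4, went from 203 to 50.6 CPM. Drosha, the nuclear microRNA-processing nuclease, went from 47.1 to 13.4, and Trim71, a let-7 target and RNA-binding partner in stem cells, from 62.9 to 18.5. Trim71 was at 0.101 CPM in the adult, whereas Drosha (15.2), Dicer1 (53.1 at E17.5 and 52.0 in the adult) and Zcchc11 (49.97) stayed near their E17.5 levels. None of the 13 compared after irradiation differed 2-fold from the adult, where 4.76% of all genes were lower and 2.55% higher.

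Of the other let-7 target genes, 11 of 33 compared were lower and 4 higher at E17.5, with a median of -0.57, where 15.6% of all genes were lower and 13% higher. In the adult 12 of 33 were lower and 1 higher than at E17.5, with a median of -0.44, where 12.3% were lower and 13.6% higher. In enteroendocrine-like cells alone that comparison gave 2 lower and 4 higher of 33, with a median of 0.17, where 8.12% were lower and 12.1% higher. The seed match was present in the 3′ UTR of 23 of these 34 genes, a list written from knowledge of let-7 targets. Mycn, a growth-driving transcription factor, went from 77.1 to 18.97 and 1.38 CPM over the 3 stages. Igdcc3 went from 50.2 to 0.0842, and Map4k4 from 242 to 26.3 and back to 96.0. Acvr1c, an activin-type receptor gene, was higher at E17.5, at 20.5 against 1.33 CPM. After irradiation 5 of 32 were lower than in the adult, among them the cell cycle kinases Aurka and Aurkb. The cyclin gene Ccnd2 was the 1 higher, at 462 against 217 CPM. Of all genes 4.76% were lower and 2.55% higher, so the count of higher genes was near that share. In enteroendocrine-like cells alone 3 of 32 were lower and 1 higher, where 2.64% and 1.54% of all genes were.

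Of 10 messages known to be bound by Igf2bp proteins, 0 were at least 2-fold lower and 3 higher at E17.5 than at E12.5. Of all genes 15.6% were lower and 13% higher, and the median of the 10 was 0.44. Outside the enteroendocrine-like class, which no E12.5 cluster was named as, 2 of 9 were lower and 2 higher, with a median of 0.21, where 18.3% of all genes were lower and 10.9% higher. H19, an imprinted noncoding RNA, was at 715 CPM at E12.5 and 1229 at E17.5, and it was not detected in the adult, where a count of 0 allows 0.101 CPM. Among 10 high mobility group genes, 3 were lower and 2 higher at E17.5 (15.6% and 13% of all genes were). After irradiation 4 were lower (4.76% of all genes), with Hmgb2, known from cycling cells, at 321 CPM in the adult and 68.7 after irradiation. In enteroendocrine-like cells alone 1 was lower and 1 higher after irradiation, where 2.64% and 1.54% of all genes were. Of 11 fetal growth genes, 5 were lower and 1 higher at E17.5, where 15.6% of all genes were lower and 13% higher. Sox11, a fetal transcription factor, went from 480 to 22.1 CPM, and Grb10, an imprinted brake on growth signals, from 291 to 43.5 and 1.25 CPM in the adult.

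Over 22 groups of library and cell class, Igf2bp1 and Igf2bp3 had the closest pair of patterns among the members, with a Pearson correlation of 0.967 in log2(CPM + 1). Hmga2 correlated at 0.909 with Igf2bp3 and at 0.873 with Igf2bp1, and Lin28a at -0.090 with Igf2bp3 and 0.046 with Igf2bp1. These points share libraries and depth, so the values only describe the patterns. Over all genes, Igf2bp1 and Igf2bp3 were each other's nearest, Cryz being next at 0.962 and 0.965. Hmga2 was nearest to Fkbp3 (0.947) and Dck (0.946), Igf2bp2 to Anp32a (0.945) and Lin28b to Cbln2 (0.961) and Shh (0.960). Lin28a was nearest to Hpx (0.918) and Alb (0.857), and Hmga1, by its own row, to Zfp985 (0.883).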

How the data were processed

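For each library the authors deposited raw UMI counts per gene and barcode, made with Cell Ranger 3.1.0 on mm10 per the submitters' processing notes. How multi-mapping reads were treated is not given in the sources used here. The filter on cells asked for 500 genes or more and no more than 20% of UMIs from mitochondrial genes. The highest Scrublet scores (scanpy 1.11.5) were removed as doublets at 0.8% per 1000 barcodes, since the automatic threshold called at most 0.565% of cells. Cells were clustered per library (2000 variable genes, 30 components, 20 neighbours, Leiden resolution 1; leidenalg 0.10.2) and named from marker lists, by thresholds revised after the clusters were seen. Clusters named for pancreas, mesenchyme, smooth muscle or mesothelium were left out of the epithelial sums, and unnamed clusters stayed in. UMIs were summed over cells and scaled to 1000000. A gene was compared where at least one of both libraries held 10 UMIs or more, with a pseudocount of 1 CPM, and called from 2-fold. Ratios have exact conditional intervals and shares exact Clopper-Pearson intervals, both for counting error only. The ratio and its interval were tested on simulated data.

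Named are the members, genes of 6 lists written from general knowledge (none of the 5 let-7 host transcripts was in the files), and the nearest genes by correlation. The members and lists were chosen with earlier results of these data known. Positions and 3′ UTRs come from GENCODE M21, in which 30934 of the 31054 feature IDs (99.6%) were found. Alternatives changed cells, scaling, pseudocount, thresholds and resolution; the sum of Hmga1 with Hmga1b was added after the data were seen. edgeR 4.0.16 supplied normalization factors only.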

Additional observations from a re-analysis of the deposited data

Results flagged for a closer look

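The row of Hmga1b, which is no member but a near-identical copy of Hmga1, carried a signal in all 4 libraries that the counts of members do not use. Its levels were 3.44 CPM at E12.5, 14.0 at E17.5, 7.57 in adult cells and 0.986 in irradiated cells. Each is above the level that a count of 0 allows (0.038, 0.0505, 0.101 and 0.0779 CPM).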

How the results depend on the processing

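No paired analysis was possible because each group has 1 library and no label ties libraries to shared animals. The count of members at least 2-fold lower at E17.5 than at E12.5 lay between 4 and 7 over all alternatives, and that of the adult against E17.5 between 3 and 6. The count higher after irradiation was 0 under every alternative except a fold of 1.5, where it was 1 (Hmga1 by its own row). No log2 ratio of a called member changed sign. Summing Hmga1 with Hmga1b moved its log2 ratio after irradiation from 0.60 to -1.13. The TMM factors shifted all log2 ratios of E17.5 over E12.5 by 0.17, and leaving out the 50 most abundant genes shifted those of the adult over E17.5 by 0.30. At resolution 0.5 the enteroendocrine-like cells of E17.5 were less far below the others for Hmga2, with a log2 ratio of -1.72 against -2.79. No crypt base columnar stem-like class of at least 50 cells was formed in the adult at that resolution. Fewer than 100 UMIs of Lin28a in any library, and of Lin28b, Igf2bp1 and Igf2bp3 in both adult libraries, limit what can be said of them there.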
